A study of Mus musculus with 6 samples.

Results

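The genes of glycolysis and of the cellular response to low oxygen were followed in Neuro2a cells, a mouse neuroblastoma line, after RNA interference against the transcription factors USF1 and USF2. A list of 37 genes was used, named by function: 4 membrane transporters of glucose and lactate, 16 glycolytic enzymes, 3 enzymes that set the flux, 12 targets of the hypoxia-inducible factor (HIF) outside glycolysis and 2 HIF alpha subunits. Of these, 35 were measured among 16583 genes on the array. Gpi1 and Eno1 had no transcript cluster (the array's unit for a gene) carrying their symbol alone. Total RNA of 6 samples was hybridised to Affymetrix Mouse Gene 1.0 ST arrays, 1 array per sample. The 3 control samples were transfected with an empty vector and the 3 knockdown samples with vectors that express artificial microRNAs against Usf1 or Usf2, made in the pcDNA6.2-GW/EmGFP-miR system, which also encodes a green fluorescent protein. The vectors went in with Lipofectamine 2000, and the labels give neither the share of cells that took up the vectors, nor the time of harvest, nor an oxygen tension. The labels number the 3 samples of a group as biological replicates without saying whether they were separate cultures, and the p-values therefore describe only how far these 6 samples scatter, which may be technical.

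Glycolysis converts glucose to pyruvate in the cytosol, and lactate dehydrogenase then turns pyruvate into lactate. When oxygen is scarce, prolyl hydroxylases no longer mark the HIF alpha subunits for destruction, and HIF raises the transcription of most glycolytic genes together with genes for angiogenesis, mitophagy, collagen modification and its own hydroxylases. HIF binds promoters at short cores that include ACGTG, the only HIF core searched for here. USF1 and USF2 bind the E-box CACGTG, a palindrome that contains ACGTG on each strand. USF factors are known for glucose-responsive transcription in liver, and neuroblastoma cells are highly glycolytic.

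Values are log2 signals relative to the median of the same cluster over the 6 arrays, which allows one gene to be followed from array to array but keeps no level. Folds are the antilog of a log2 difference. The rounding of the values places a cluster's signal before this centring in a brighter class (8 to 16 on the log2 scale) or a dimmer class (4 to 8), and 28 of the 35 genes were in the brighter one. The standard deviation over all clusters was between 0.0531 and 0.0780 on 5 arrays and 0.159 on knockdown array 2, where the median of the brighter class was -0.03 and that of the dimmer class 0.07. In the knockdown samples Usf1 was at 0.682-fold and Usf2 at 0.770-fold of control, without overlap between the groups but with limma adjusted p of 0.320 and 0.348, above the threshold of 0.05. Of 17 measured genes that mark neuroblastoma and sympathetic neurons, 15 were in the brighter class, and Th and Dbh were in the dimmer one. Of the markers of other cells, 1 of 10 for glia, 1 of 10 for fibroblasts, 0 of 8 for macrophages and blood and 2 of 10 for endothelium and epithelium were in the brighter class. In a bulk sample, fewer cells of a type and less RNA per cell cannot be told apart.

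The promoters of this group carry the shared core often. RefSeq promoter windows (GRCm38.p6, 250 bases before to 50 after a start site) were held for 31 of the 35 measured genes, with no entry for Slc2a3, Bnip3l, Ndrg1 and Epas1. ACGTG on either strand, including where it lies within CACGTG, was present for 23 of the 31 (74.2%), against 26.7% of the 13071 tested genes with an entry. It was present for 9 of 10 non-glycolytic HIF targets and 9 of 14 glycolytic enzymes. Many of these genes were listed as known HIF targets, so a high share of ACGTG is partly built into the list. The background was not matched for brightness class. The full E-box CACGTG was present for 6 of the 31 (19.4%), against 10.6% of the tested genes. Genes with several windows had more chances of a match. The 6 genes are shown first, with the E-box and any further ACGTG core of the stretch in capitals, because the E-box is the sequence that USF1 and USF2 recognise. Slc16a3 and Ankrd37 follow. Of the 4 genes with the smallest unadjusted p described below, only they hold ACGTG before the start site without the E-box. Neither passed the adjusted threshold. The stretches are chr7:138909589-138909634 (minus strand) for Bnip3, chr7:46845639-46845794 (plus) for Ldha, chr12:73907712-73907821 (plus) for Hif1a, chr3:104638444-104638489 (plus) for Slc16a1, chr15:98092433-98092478 (plus) for Pfkm, chr2:11502118-11502163 (minus, the second of 2 start sites) for Pfkfb3, chr11:120949020-120949066 (plus) for Slc16a3 and chr8:45999851-45999891 (minus) for Ankrd37, all upstream of the start.
Bnip3: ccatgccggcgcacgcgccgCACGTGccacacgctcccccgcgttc
Ldha: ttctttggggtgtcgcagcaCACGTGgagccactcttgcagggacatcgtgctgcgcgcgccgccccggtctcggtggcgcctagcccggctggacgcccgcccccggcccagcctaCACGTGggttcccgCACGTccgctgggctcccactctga
Hif1a: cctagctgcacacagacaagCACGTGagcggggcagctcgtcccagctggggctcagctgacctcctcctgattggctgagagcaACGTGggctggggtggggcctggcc
Slc16a1: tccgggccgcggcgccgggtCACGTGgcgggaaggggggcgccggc
Pfkm: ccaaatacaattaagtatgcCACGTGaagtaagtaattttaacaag
Pfkfb3: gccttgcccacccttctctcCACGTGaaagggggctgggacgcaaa
Slc16a3: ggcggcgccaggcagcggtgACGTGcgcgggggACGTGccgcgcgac
Ankrd37: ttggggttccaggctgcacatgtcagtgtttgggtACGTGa

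Counted from the start site, with -1 the last base before it, the E-box began at base -108 in Bnip3 and at bases -145 and -48 in Ldha. It began at -135 in Hif1a, -200 in Slc16a1, -136 in Pfkm and -53 in Pfkfb3. Further ACGTG cores lay outside the stretches shown, at base -241 in Ankrd37 and 21 in Slc16a1. Pfkm had them at base 17 and, in its second window, at -244, and Pfkfb3 at -60 in its first window. Aldoc had no E-box in its 2 windows, and its only ACGTG core (as CACGT, the reverse of ACGTG) began at base 28 after a start site. A match is a description of the letters and does not show that a factor binds there.

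Setting knockdown against empty vector asks which RNAs differ between these samples, here for glycolysis and the HIF targets. With an empty vector as control, lower Usf1 and Usf2 cannot be told apart from other effects of expressing artificial microRNAs. Over all genes 1 passed an adjusted p of 0.05 in limma (0.00603%), and it was not in this group. Of the 35 genes 0 passed, with limma adjusted p of 0.899 or more. At an unadjusted limma p under 0.05 there were 4 of 35 (11.4%), against 4.25% of all genes and 4.99% of the 7320 genes of the brighter class. These 4, the aldolase Aldoc, the HIF targets Ankrd37 and Bnip3 and the lactate exporter Slc16a3, were all lower in the knockdown samples, a direction that held for 2.65% of all genes at this p, and 0 of the 35 were higher (1.60% of all genes). The groups did not overlap for 6 of the 35 genes, these 4 with Eno2 and P4ha1, against 10.3% of all genes and 14.1% of the brighter class. In each of the 6 the knockdown samples were the lower ones (5.95% of all genes, 8.61% of the brighter class), and 0 of the 35 had them wholly above the controls (4.33% of all genes). Within the group the changes ran from -0.26 to 0.04, with a median of -0.02, and 20 of 35 were below 0 (57.1%), against 50.4% of all genes and 59.3% of the brighter class.

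**Figure D1:**
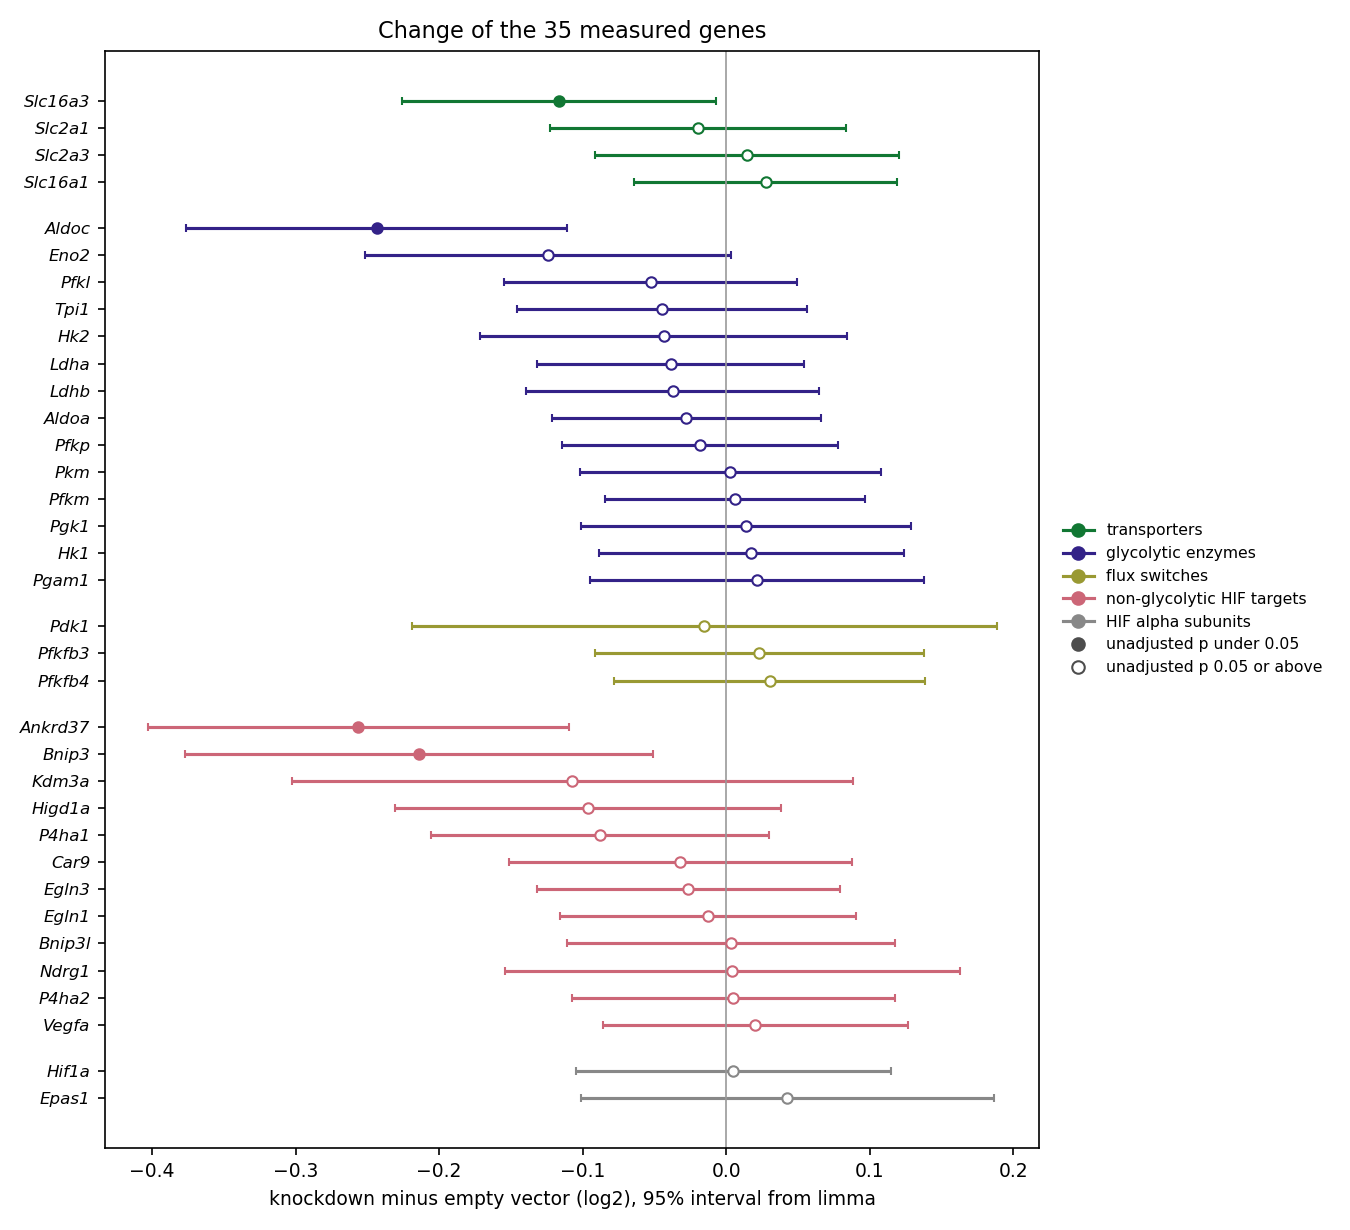
Log2 difference, knockdown minus control (horizontal axis), for the 35 measured genes, grouped by role, with 95% intervals from limma (3 arrays per group). Filled points are the 4 genes at an unadjusted p under 0.05, Slc16a3, Aldoc, Ankrd37 and Bnip3, all below 0, and the intervals of the other 31 reach across 0.

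Of the transporters, only Slc16a3 reached an unadjusted p under 0.05. Slc2a1 and Slc2a3 encode the glucose carriers GLUT1 and GLUT3, and Slc16a1 and Slc16a3 the monocarboxylate carriers MCT1 and MCT4, of which MCT4 is the exporter that HIF induces. Slc16a3 was at 0.11, 0.02 and 0.03 on empty vector arrays 1, 2 and 3 and at -0.02, -0.12 and -0.05 on knockdown arrays 1, 2 and 3. The groups did not overlap, but the nearest arrays of each lay close to 0. Its difference was -0.12 ± 0.05 (SE, n = 3 arrays per group), or 0.923-fold, with an unadjusted limma p of 0.0401 (adjusted 0.996) and an exact two-sided permutation p of 0.10, the smallest that 3 against 3 arrays can give. Leaving out 1 array at a time, the unadjusted limma p was under 0.05 only without knockdown array 1 (0.0480). With the first control array left out it was 0.121, with knockdown array 2 left out 0.0818, and after quantile normalization 0.0511. Slc16a1, whose promoter carries the E-box, was at -0.03, 0.0017 and -0.0063 with empty vector and -0.0017, 0.02 and 0.03 with knockdown. The groups overlapped, and the difference was 0.03 with a 95% interval from -0.06 to 0.12. Slc2a1 was at 0.06, -0.03 and 0.01 with empty vector and -0.04, -0.01 and 0.03 with knockdown, a difference of -0.02 (interval -0.12 to 0.08, that is 0.919- to 1.06-fold). For Slc2a3 the difference was 0.01 (interval -0.09 to 0.12), again with overlap between the groups.

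The lowest change among the glycolytic enzymes was that of Aldoc. Aldoc encodes the aldolase isoform of brain, and Aldoa the widespread one. Aldoc was at 0.26, 0.18 and 0.06 on the empty vector arrays and -0.06, -0.10 and -0.08 on the knockdown arrays. Every knockdown array lay below every empty vector array, and the empty vector arrays differed more among themselves (SD 0.10) than the knockdown arrays (SD 0.02). The difference was -0.24 ± 0.06 (SE), or 0.845-fold with a 95% interval of 0.771 to 0.926, with an unadjusted limma p of 0.00295 and an adjusted p of 0.899. In order of change it stood within the lowest 0.32% of all genes. Leaving out 1 array at a time it stayed between -0.30 and -0.20, at an unadjusted limma p under 0.05 in 6 of 6 fits. Aldoa was at 0.0077, -0.0077 and 0.0080 with empty vector and -0.05, 0.0098 and -0.03 with knockdown. The knockdown arrays fell on both sides of the control range, and the difference was -0.03 (interval -0.12 to 0.07).

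Eno2, the neuronal enolase, was at 0.01, 0.10 and 0.05 with empty vector and -0.03, -0.17 and -0.01 with knockdown. The groups did not overlap, with knockdown array 2 far below the other two. The difference of -0.12 ± 0.06 (SE) had an unadjusted limma p of 0.0556. Without knockdown array 2 it was -0.07, and without knockdown array 3 it was -0.15 with an unadjusted limma p of 0.0375. Eno1, the widespread enolase, was not measured here, so the isoforms could not be set side by side.

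The other 12 measured enzymes had differences between -0.05 and 0.02. Hexokinases trap glucose in the cell: Hk2, the inducible isoform and a HIF target, differed by -0.04 (interval -0.17 to 0.08), and Hk1 by 0.02 (interval -0.09 to 0.12). Phosphofructokinase commits the sugar to glycolysis, and its liver, muscle and platelet subunits Pfkl, Pfkm and Pfkp differed by -0.05, 0.0063 and -0.02. Pfkm carries the E-box in the promoter shown, and its 3 empty vector arrays were at -0.02, -0.02 and 0.02 around knockdown arrays at or within 0.00057 of 0. Triosephosphate isomerase, Tpi1, differed by -0.04. Phosphoglycerate kinase Pgk1 and mutase Pgam1, among the classic HIF targets, differed by 0.01 and 0.02. For each of these 2 genes empty vector arrays 1 and 2 lay at the extremes, 0.06 and -0.09 for Pgk1 and 0.07 and -0.07 for Pgam1, with all knockdown arrays between them. Pyruvate kinase Pkm, which makes the pyruvate, differed by 0.0028, the mean of 2 clusters that went opposite ways (0.04 and -0.03).

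Lactate dehydrogenase A carries E-boxes at both positions given above and is a target of HIF and of MYC. Ldha was at 0.03, -8.1e-04 and 0.04 with empty vector and at 8.1e-04, -0.04 and -0.0098 with knockdown. The groups overlapped by a narrow margin, and the difference was -0.04 with a 95% interval of -0.13 to 0.05, that is 0.913- to 1.04-fold. Ldhb, the subunit that favours the reverse reaction, differed by -0.04 (interval -0.14 to 0.06), and it was in the dimmer class, unlike the other 13 measured enzymes of the list. Its 2 clusters changed by -3.2e-04 and -0.07.

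**Figure D2:**
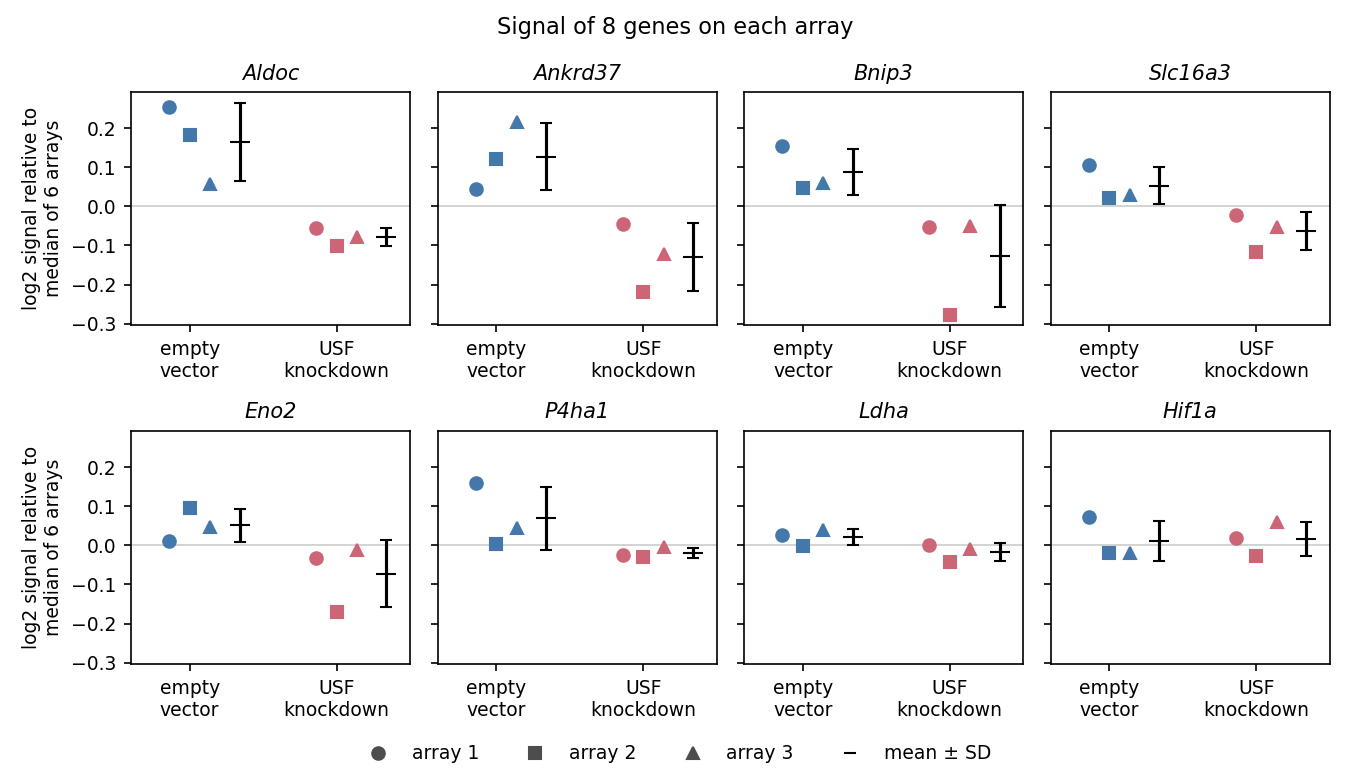
Log2 signal relative to the median of the 6 arrays (vertical axis) for 8 genes, with each array as a point (circle, array 1; square, array 2; triangle, array 3) and the group mean ± SD in black. In the first 6 panels every knockdown point is below every control point, Bnip3 and Eno2 with 1 knockdown array (array 2) far below the others, and in the panels of Ldha and Hif1a the groups overlap.

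Of the enzymes that set the flux, 0 of 3 had an unadjusted limma p under 0.05. Pfkfb3 and Pfkfb4 make fructose 2,6-bisphosphate, the activator of phosphofructokinase, and Pdk1 inhibits the pyruvate dehydrogenase complex inside mitochondria. Pfkfb3 was at -0.07, -0.02 and 0.02 with empty vector and 0.03, -0.07 and 0.04 with knockdown, and the groups overlapped. Its difference was 0.02 (interval -0.09 to 0.14), and that of Pfkfb4 0.03 (interval -0.08 to 0.14). Pdk1 was at 0.21, -0.16 and -0.0070 with empty vector and 0.0070, 0.02 and -0.03 with knockdown. The control arrays alone covered a wider range than all knockdown arrays, so its difference of -0.02 had an interval from -0.22 to 0.19. It was 0.08 without empty vector array 1 and -0.10 without empty vector array 2.

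The non-glycolytic HIF targets held the lowest change of the group, that of Ankrd37. Ankrd37, an ankyrin repeat protein whose gene is directly induced by HIF, was at 0.05, 0.12 and 0.22 with empty vector and -0.05, -0.22 and -0.12 with knockdown. The groups did not overlap. The difference of -0.26 ± 0.06 (SE), or 0.837-fold with a 95% interval of 0.756 to 0.927, had an unadjusted limma p of 0.00393 and an adjusted p of 0.911. It lay between -0.30 and -0.21 with any 1 array left out, at an unadjusted limma p under 0.05 in 6 of 6 fits. Ankrd37 was in the dimmer class.

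Bnip3 encodes a mitochondrial outer membrane receptor for mitophagy and is among the strongest HIF targets. As the mean of its 2 clusters it was at 0.16, 0.05 and 0.06 with empty vector and -0.05, -0.28 and -0.05 with knockdown. Empty vector array 1 and knockdown array 2 lay apart from the other arrays of their groups, and the groups did not overlap. The difference of -0.21 ± 0.07 (SE), or 0.862-fold, had an unadjusted limma p of 0.0166 and an adjusted p of 0.996. Without knockdown array 2 it was -0.14 with an unadjusted limma p of 0.0176, and without empty vector array 1 it was -0.18 with 0.0663. The clusters differed in size: cluster 10414269 changed by -0.27 and cluster 10568785 by -0.16. On empty vector array 1 the former was at 0.27 and the latter at 0.04. Bnip3l, its close relative, was at 0.02, 0.0033 and -0.01 with empty vector and -0.0043, -0.06 and 0.09 with knockdown, which overlapped. It differed by 0.0034 (interval -0.11 to 0.12), with its 2 clusters at 0.0019 and 0.0050. The difference between these paralogs was not tested.

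The collagen prolyl hydroxylase subunit P4ha1 was at 0.16, 0.0040 and 0.04 with empty vector and -0.02, -0.03 and -0.0040 with knockdown. The groups did not overlap, with empty vector array 1 high, and the difference of -0.09 had an unadjusted limma p of 0.123, or -0.04 without empty vector array 1. Its paralog P4ha2 differed by 0.0049 (interval -0.11 to 0.12).

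For Kdm3a the mean difference came with knockdown array 2, and for Higd1a only part of it did. Kdm3a, a histone demethylase, was at 0.07, -0.01 and -4.0e-04 with empty vector and at 4.0e-04, -0.29 and 0.02 with knockdown. The difference of -0.11 (interval -0.30 to 0.09) was -0.0054 without knockdown array 2. Higd1a, a mitochondrial inner membrane protein, differed by -0.10 (interval -0.23 to 0.04), and by -0.04 without that array. Of its 2 clusters, 10492860 changed by -0.13 and was at -0.39 on knockdown array 2. Cluster 10597871 changed by -0.06, and was at 0.0049 on that array and -0.10 on knockdown array 3.

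Egln1 and Egln3 encode prolyl hydroxylases that mark HIF alpha for destruction and are themselves induced by HIF. Egln1 differed by -0.01 (interval -0.12 to 0.09) and Egln3 by -0.03 (interval -0.13 to 0.08). Egln2, a hydroxylase of the same family listed with the regulators of HIF, differed by -0.03 (interval -0.13 to 0.06). The angiogenic factor Vegfa was at -0.08, 0.04 and -0.02 with empty vector and at -3.3e-04, 0.0071 and 3.3e-04 with knockdown. All its knockdown arrays lay within the control range, and the difference was 0.02 (interval -0.09 to 0.13). Ndrg1, a stress-induced differentiation gene, and Car9, a membrane carbonic anhydrase, were in the dimmer class and differed by 0.0044 and -0.03. Ndrg1 was at 0.17 on knockdown array 2 and -0.09 on array 3, and its difference was -0.07 without array 2.

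**Figure D3:**
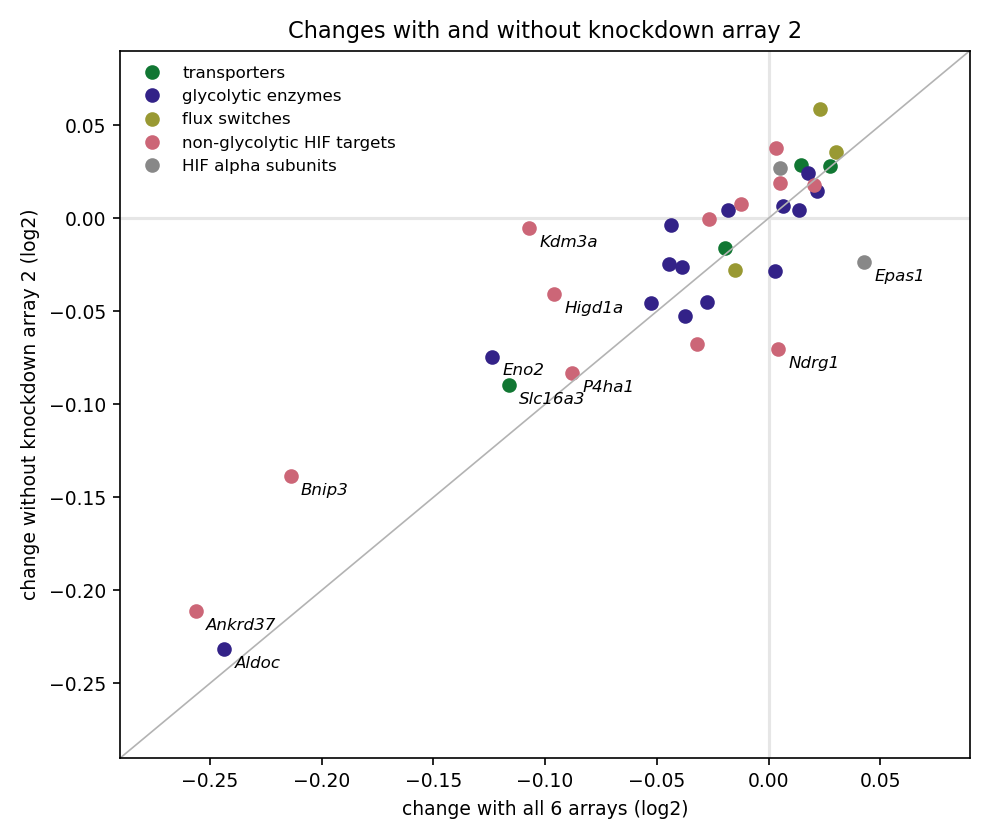
Change of each of the 35 genes with all 6 arrays (horizontal axis) against its change without knockdown array 2 (vertical axis), both on the log2 scale, coloured by role, with the line of equal values in grey. Aldoc and Ankrd37 keep most of their difference (-0.23 and -0.21 without the array), Bnip3 goes from -0.21 to -0.14 and Kdm3a from -0.11 to -0.0054.

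The HIF alpha subunits themselves had small differences in RNA. Hif1a, with the E-box in its promoter, was at 0.07, -0.02 and -0.02 with empty vector and 0.02, -0.03 and 0.06 with knockdown. The groups overlapped, and the difference was 0.0051 (interval -0.10 to 0.11, that is 0.930- to 1.08-fold). Epas1, which encodes HIF2 alpha and was in the dimmer class, was at -0.0031, -0.0024 and 0.0024 with empty vector and 0.0043, 0.17 and -0.05 with knockdown. The difference of 0.04 (interval -0.10 to 0.19) was -0.02 without knockdown array 2. HIF alpha is controlled mainly as protein, which was not measured. The common partner Arnt, not a member of the group, differed by -0.0043 (interval -0.10 to 0.09).

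The glycolytic enzymes were then set against the non-glycolytic HIF targets. The median change was -0.03 for the 14 enzymes and -0.03 for the 12 HIF targets, against -6.6e-04 for all genes and -0.01 for the brighter class, in which 13 and 8 of them lay. Of the enzymes 9 of 14 were below 0 (64.3%) and of the HIF targets 8 of 12 (66.7%). Measured from the empty vector mean, the median of the enzymes was 0.02, -0.01 and 1.2e-04 on the empty vector arrays and -0.02, -0.03 and -0.03 on the knockdown arrays. That of the HIF targets was 0.03, -0.02 and -0.02 on the empty vector arrays and -0.03, -0.07 and -0.03 on the knockdown arrays. For each of these 2 lists the knockdown medians lay below all control medians. On knockdown array 2 the brighter class as a whole was at -0.04, below all 3 control arrays too, whereas on knockdown arrays 1 and 3 it was at -3.2e-04 and 0.0046. Knockdown medians also lay below all control medians for the 20 further genes of glycolysis and pyruvate handling described below. For all 35 genes they overlapped, at 0.032, -0.022 and -0.0051 with empty vector and -0.018, -0.039 and -0.0044 with knockdown. They overlapped too for the 36 further HIF targets, at -0.023, 0.023 and 0.0051 and at -0.0195, -0.027 and -0.0074. The enzyme median minus the HIF target median was -0.01, 0.0074 and 0.02 with empty vector and 0.0070, 0.04 and 0.0048 with knockdown, which overlapped. In the fitted changes this difference was -0.0032, and 0.02 without knockdown array 3. The fitted difference was smaller than the SD between arrays of one group (0.0169). Within each list the changes were uneven: Aldoc and Eno2 were the lowest of the enzymes and the next was at -0.05, and Ankrd37 and Bnip3 were the lowest of the HIF targets and the next was at -0.11.

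**Figure D4:**
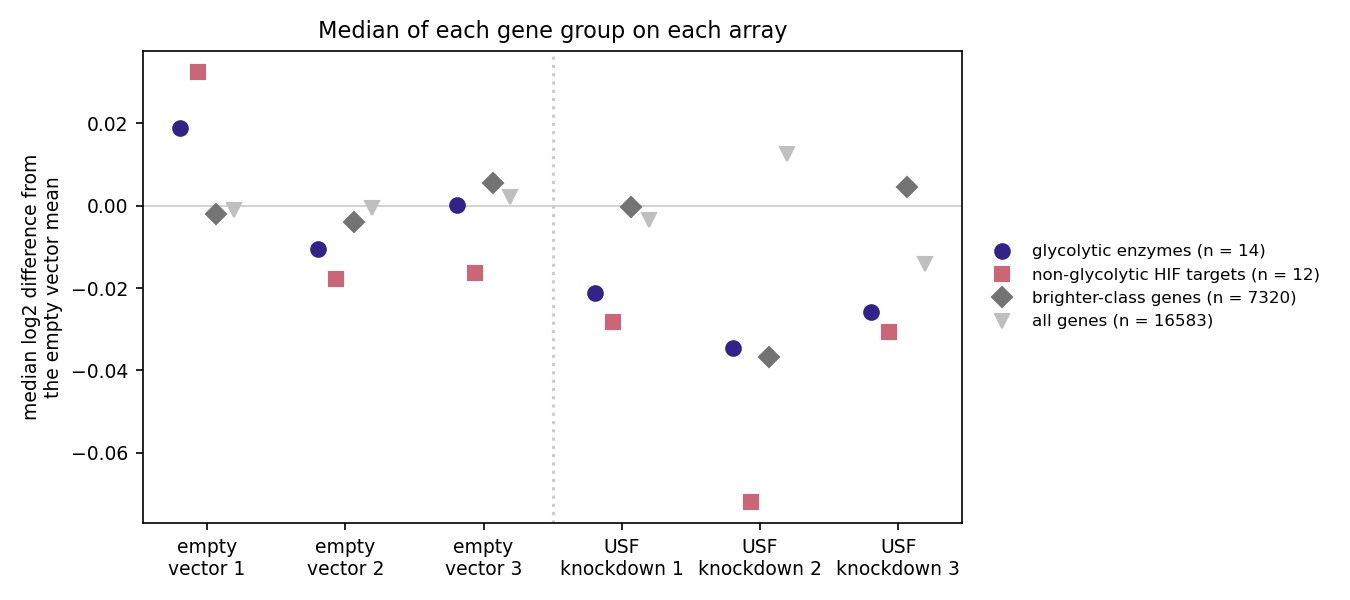
Median log2 difference from the empty vector mean (vertical axis) on each of the 6 arrays for the 14 glycolytic enzymes, the 12 non-glycolytic HIF targets, the 7320 genes of the brighter class and all 16583 genes. Both gene groups lie below 0 on the 3 knockdown arrays, with the HIF targets lowest on knockdown array 2 (-0.07), where the brighter class is at -0.04.

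The promoter motif was then set beside these changes. Of the 6 measured genes with CACGTG, 1 (Bnip3) had an unadjusted limma p under 0.05, and their median change was 0.0057. Aldoc, Ankrd37 and Slc16a3 held no CACGTG in these windows. Over all tested genes with an entry, 6.93% of the 1385 with CACGTG and 4.01% of the 11686 without it had an unadjusted limma p under 0.05, with median changes of -0.0033 and -0.0012. These shares were not split by brightness class, and the difference between them was not tested.

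Other genes of the pathway were taken from lists of related function. Of 20 further genes of glycolysis and pyruvate handling measured (31 listed), 1 had an unadjusted limma p under 0.05, Dlat, the acetyltransferase of the pyruvate dehydrogenase complex. Dlat was at 0.07, 0.03 and 0.09 with empty vector and -0.08, -0.13 and -0.03 with knockdown, without overlap. It differed by -0.14 ± 0.05 (SE), with an unadjusted limma p of 0.0164 (adjusted 0.996), or 0.0618 without empty vector array 3. Gapdh had no cluster of its own. Over the 25 clusters that name it beside its pseudogenes the difference was 0.0064 ± 0.04 (SE), from a fit that took clusters with several symbols. Of 36 further HIF targets measured (38 listed), 2 had an unadjusted limma p under 0.05, both lower. Pgm1, named for phosphoglucomutase, which links glycogen to glycolysis, was at 0.04, 0.06 and 0.10 with empty vector and -0.04, -0.19 and -0.14 with knockdown. Fam162a, a mitochondrial protein induced by hypoxia, was at 0.09, 0.15 and 0.02 and at -0.02, -0.10 and -0.11. Neither overlapped between the groups, and they differed by -0.19 ± 0.05 and -0.16 ± 0.05 (SE; unadjusted limma p of 0.00672 and 0.0115, adjusted 0.996 for each). Over both lists of HIF targets, 4 of 48 genes had an unadjusted limma p under 0.05 (8.33%), 0 of them higher, against 4.25% of all genes and 4.99% of the brighter class. The further HIF targets alone (5.56%) and the further glycolysis genes (5%) were near that background. Of 14 partners and regulators of HIF 0 did.

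Markers of neuronal identity and of stress went both ways, and 0 of them passed the adjusted threshold in limma (smallest adjusted p of 0.759 and 0.794). Of the 17 neuroblastoma and sympathetic markers, 10 were below 0. An unadjusted limma p under 0.05 was reached by 3 (17.6%), against 4.25% of all genes and 4.99% of the brighter class. These were Dbh (-0.25 ± 0.05, SE), Chgb (-0.15 ± 0.05) and Elavl4 (-0.13 ± 0.04). In 4 of the 17, these 3 with Gap43 (-0.08), the knockdown arrays lay wholly below the controls, against 5.95% of all genes and 8.61% of the brighter class. Chga, a granin like Chgb, was the 1 of 17 above all controls on the 3 knockdown arrays (0.05), against 4.33% of all genes. Gata3 was at 0.06, with overlap between the groups. Of 9 genes of heat and cell stress, 3 were below 0, among them Dnajb1 (-0.06), whose knockdown arrays lay below the controls. Ddit3 (0.27 ± 0.06) and Atf3 (0.15 ± 0.06) had an unadjusted limma p under 0.05 in the higher direction, as had 1.60% of all genes. On knockdown arrays 1, 2 and 3 the median of the fibroblast markers was 0.03, 0.23 and -0.07 and that of the glial markers 0.02, 0.14 and 0.01, with 0 genes of these lists or of the blood and endothelial lists at an unadjusted limma p under 0.05. The part of these markers in the lower values of Aldoc, Eno2, Ankrd37 and Bnip3 was not tested.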

How the data were processed

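The deposited values, read here as log2, cover 22891 transcript clusters on 6 arrays, each value relative to its cluster's median (largest absolute median 5e-07). Of the log base, the background correction and the normalization the labels and file headers say nothing, and each is not given in the sources used here. Brightness classes came from the rounding step of the values (tolerance 0.05 of a step, values under 0.001 left out, 15 clusters unknown). Clusters with exactly 1 symbol in the platform annotation (18087) were averaged per gene. Knockdown minus empty vector was tested with limma 3.58.1 (lmFit, eBayes, R 4.3.3, 4 residual and 3.79 prior degrees of freedom, Benjamini-Hochberg over 16583 genes, threshold 0.05). The fit was also run on simulated data, drawn as independent noise with added changes, and no result here rests on that run. The median standard error was 0.0561 with 3 arrays per group, which limits the precision. Knockdown array 2 had the widest spread (SD 0.159). Figures used matplotlib 3.10.9.

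The genes and lists were chosen with earlier results of these data known. The genes described in most detail are those at an unadjusted p under 0.05, the 2 with the smallest p per role, Bnip3, Hif1a and Epas1, with Arnt, Gapdh and other pathway genes at that p. P4ha1, Kdm3a, Higd1a, Ldha and the remaining members are given to account for the whole list, and the markers named were chosen after their values were seen.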

Additional observations from a re-analysis of the deposited data

How the results depend on the processing

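Alternatives were quantile normalization, centring or scaling the arrays, the most variable cluster per gene, clusters with several symbols, the brighter class alone, a robust variance prior, array weights, a replicate block, clusters with a curated RefSeq transcript (chosen after seeing the data) and leaving out 1 array at a time. With the replicate block limma called 0 genes (636 at an unadjusted p under 0.05, 3.84%), and the members at that p stayed at 4 of 35. Deviations of same-numbered arrays correlated at 0.0031, 0.0819 and 0.0364, each under 0.1. With 3 arrays per group such values cannot show whether same-numbered arrays shared a culture or a day. The labels do not say so, and the arrays were left unpaired in the main fit. Empty vector arrays 2 and 3 correlated best with their own number, and array 1 with knockdown array 3 (0.0535). Scaling the arrays to 1 median absolute deviation also left 0 genes called. Array weights gave 1111 called genes of 16583 and 3 called members of 35 (Aldoc, Ankrd37 and Bnip3, limma adjusted p of 0.0202, 0.0226 and 0.0481). At an unadjusted p under 0.05 there were 4356 genes (26.3%) and 6 of the 35 members, a smaller share than over all genes. The enzyme median of this fit was -0.0189. These weights were 33, 0.136 and 0.441 on knockdown arrays 1, 2 and 3, and their estimation stopped before converging, so that fit rests in effect on 1 knockdown array. Over the fits without 1 array, called genes ranged from 0 to 1 (0 without any empty vector array or knockdown array 1) and members called from 0 to 0. Genes at an unadjusted p under 0.05 ranged from 369 (without empty vector array 3) to 1248 (without knockdown array 2). Members at that p were 2 of 35 without empty vector array 1, against 4.7% of all genes. They were 3 of 35 without empty vector array 2, empty vector array 3 or knockdown array 2, against 2.61%, 2.23% and 7.53% of all genes. They were 4 of 35 without knockdown array 1 or 3, against 3.43% and 7.41%. Quantile normalization left 3 members of 35 at that p, without Slc16a3, against 5.38% of all genes. In the brighter class alone Ankrd37 was not tested and Eno2 reached that p. There 4 of 28 members did, against 7.54% of the genes tested. The enzyme median, without 1 array, ranged from -0.0389 to -0.0193, that of the HIF targets from -0.0499 to -0.0138, and their difference from -0.0177 to 0.0202. Several small changes turned sign. With quantile normalization these were Pkm (-0.014), Egln1 (7.0e-04), Ndrg1 (-0.027) and Arnt (0.00361), and with scaled arrays Pkm (-0.0146), Egln1 (1.0e-06), Ndrg1 (-0.0309) and Arnt (0.00439). With array weights they were Pfkp (0.00875), Pgam1 (-0.00777), Pkm (-0.0367), Pdk1 (0.0233), Bnip3l (-0.00268), Egln1 (0.0102), Ndrg1 (-0.0369) and Arnt (0.0143). Hk1 was at -0.0331 with clusters of several symbols, all of which also name the ribosomal gene Rpl17, and Pkm at -0.0332 with curated clusters. Without 1 array, signs turned for Arnt (-0.0219 to 0.00903), Bnip3l (-0.036 to 0.0376), Egln1 (-0.0317 to 0.0109), Epas1 (-0.0235 to 0.0902), Hif1a (-0.016 to 0.0353), Hk1 (-0.0159 to 0.0412), Ndrg1 (-0.0704 to 0.0599), P4ha2 (-0.0144 to 0.042), Pdk1 (-0.104 to 0.0842), Pfkfb3 (-0.00017 to 0.0584), Pfkm (-0.00097 to 0.0188), Pfkp (-0.0311 to 0.00426), Pgam1 (-0.00818 to 0.0597), Pgk1 (-0.0255 to 0.0491), Pkm (-0.0281 to 0.0222), Slc2a1 (-0.0411 to 0.00218), Slc2a3 (-0.0119 to 0.0424) and Vegfa (-0.0102 to 0.0511). The cause was not tested.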

Other observations

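The branches that leave glycolysis, the pentose phosphate, hexosamine, serine and glycerol phosphate routes, had 14 of 15 listed genes measured, 12 of them in the brighter class. Their median change was 0.02, above that of the brighter class (-0.01), with 5 of 14 below 0 and 0 at an unadjusted limma p under 0.05. Their medians on knockdown arrays 1, 2 and 3 were 0.03, 0.0044 and 0.05. Carbohydrate-response factors and their targets, through which glucose acts on transcription at paired E-boxes, had a median of 0.02 over 7 genes, with 0 at an unadjusted limma p under 0.05.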
